A study of Mus musculus with 9 samples.

Results

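The promoters of distal chromosome 1 of the mouse were 345 of the 10271 promoter windows in the authors' deposited table, and were taken as all windows on chromosome 1 that begin at base 92473658 (mm10) or beyond. The last of them ended at base 195132570, so the region spanned 102.7 Mb. The other 244 windows of chromosome 1 served for comparison. Nearly all distal windows, 342 of 345, lay at an annotated gene start, and 337 were at protein-coding genes. Of the 666 protein-coding genes that RefSeq places in the region, 335 (50.3%) had a window, against 42.8% in the rest of chromosome 1 and 44.7% over all chromosomes, and the others were not analysed here. The region had been picked because its windows were lower in Snai1 than in EV, so the change between Snai1 and EV and the p-values of that contrast describe the members and test nothing about them.

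Open chromatin was mapped by ATAC-seq, which reads out where a transposase can insert adapters into DNA, in HPC7, a mouse hematopoietic progenitor line kept in stem cell factor. All cells carried a retroviral vector named MIG. In the Snai1 group it held FLAG-tagged wildtype Snai1 (MIG-Snai1, 3 libraries), and in the EV group it was empty (MIG-EV, 3 libraries); 3 libraries of a mutant, MIG-mut5Snai1, were not analysed here. The labels do not give the promoter that drives the vector, nor whether libraries of the same group were transduced separately. The authors' p-values reflect differences between libraries that may be technical only.

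For each window the authors' deposited table gives 1 log2 concentration per group, which is DiffBind's normalized read density, and no value per library. No standard deviation can therefore be attached to it, and the depth of the libraries is unknown here. The change is Snai1 minus EV on the log2 scale. A standard error worked back from the change and the deposited p-value is called the implied SE. It had a median of 0.08 log2 over the distal windows. In such bulk libraries, fewer cells with an open promoter and less opening in each cell cannot be told apart. Open and accessible refer here to the normalized read density alone. Whether the number of DNA copies differed between the groups was not tested. All 10 progenitor markers looked up (among them Kit, Tal1, Gata2 and Lyl1) had a window, with log2 concentrations from 10.15 to 12.44 in Snai1 and from 10.16 to 12.22 in EV. Of 10 fibroblast markers, 2 had one (Pdgfrb and Fap, 9.53 to 10.21 in Snai1 and 9.15 to 10.14 in EV).

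Snai1 is a zinc finger repressor that binds the E-box CAGGTG and silences epithelial genes in epithelial-mesenchymal transition, with its SNAG domain recruiting the demethylase Lsd1 and the CoREST proteins. The distal part of mouse chromosome 1 holds several clusters of immune genes. The Slam family of lymphocyte and myeloid surface receptors, the low-affinity Fc receptors for immunoglobulin G and the Ifi200 family of interferon-induced DNA sensors lie close together there, and the leukocyte phosphatase Ptprc (CD45), a cluster of clade B serpins and regulators of complement lie elsewhere in it. The same region carries housekeeping genes of mitochondria, mitosis and chromatin.

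A RefSeq promoter (GRCm38.p6, the same coordinates as mm10) was matched to 298 of the 345 windows. Among the windows with such a match, predicted genes left out, below are the 250 bases before the gene start at the 4 that stood farthest above their neighbours in change and at the 4 farthest below them, since these depart most from the shift that the rest share. Ctse, second by this measure among all named windows, is not among them. The order is 5' to 3' on the gene's strand, and capitals mark CAGGTG or its reverse complement CACCTG, searched on both strands. Those above their neighbours were Serpinb7 (chr1:107422439-107422688, plus strand), Sh2d1b1 (chr1:170277068-170277317, plus strand), Cd84 (chr1:171839447-171839696, plus strand) and Ephx1 (chr1:181017570-181017819, minus strand). None of these 250-base stretches held the 6 letters.
Serpinb7: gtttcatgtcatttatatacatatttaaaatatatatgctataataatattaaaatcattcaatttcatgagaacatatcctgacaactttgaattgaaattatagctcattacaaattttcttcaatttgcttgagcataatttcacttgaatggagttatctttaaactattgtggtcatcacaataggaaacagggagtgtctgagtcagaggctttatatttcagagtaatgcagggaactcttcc
Sh2d1b1: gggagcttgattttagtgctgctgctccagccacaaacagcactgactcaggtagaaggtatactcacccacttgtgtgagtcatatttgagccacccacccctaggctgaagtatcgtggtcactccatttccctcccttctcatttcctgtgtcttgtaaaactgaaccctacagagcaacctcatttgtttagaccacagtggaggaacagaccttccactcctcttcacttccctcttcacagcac
Cd84: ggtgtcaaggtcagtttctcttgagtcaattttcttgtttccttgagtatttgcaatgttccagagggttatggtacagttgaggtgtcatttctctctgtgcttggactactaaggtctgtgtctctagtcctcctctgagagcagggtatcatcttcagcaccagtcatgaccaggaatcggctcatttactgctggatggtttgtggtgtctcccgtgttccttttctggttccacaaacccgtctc
Ephx1: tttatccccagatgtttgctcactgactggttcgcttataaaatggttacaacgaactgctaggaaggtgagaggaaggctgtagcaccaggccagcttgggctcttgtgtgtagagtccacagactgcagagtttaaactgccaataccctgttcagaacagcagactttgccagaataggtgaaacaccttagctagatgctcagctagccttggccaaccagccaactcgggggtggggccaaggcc

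Those below their neighbours were Fmn2 (chr1:174501575-174501824, plus strand), Slc26a9 (chr1:131743772-131744021, plus strand), Lyplal1 (chr1:186117311-186117560, minus strand) and Lamb3 (chr1:193301993-193302242, plus strand). Slc26a9 held CAGGTG once, at position -235 counted from the gene start at 0, and Lamb3 held CACCTG once, at position -6. The GC content of the 8 stretches ran from 29.2% at Serpinb7 to 61.2% at Lamb3.
Fmn2: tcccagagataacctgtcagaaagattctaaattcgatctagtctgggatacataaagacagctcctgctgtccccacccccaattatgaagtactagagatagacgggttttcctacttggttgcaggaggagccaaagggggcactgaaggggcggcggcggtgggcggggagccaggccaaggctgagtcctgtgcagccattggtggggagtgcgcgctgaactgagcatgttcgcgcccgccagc
Slc26a9: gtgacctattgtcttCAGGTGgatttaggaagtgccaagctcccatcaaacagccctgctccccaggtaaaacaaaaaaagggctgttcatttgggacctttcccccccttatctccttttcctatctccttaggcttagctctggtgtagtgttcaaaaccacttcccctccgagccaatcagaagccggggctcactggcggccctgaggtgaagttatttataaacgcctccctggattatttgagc
Lyplal1: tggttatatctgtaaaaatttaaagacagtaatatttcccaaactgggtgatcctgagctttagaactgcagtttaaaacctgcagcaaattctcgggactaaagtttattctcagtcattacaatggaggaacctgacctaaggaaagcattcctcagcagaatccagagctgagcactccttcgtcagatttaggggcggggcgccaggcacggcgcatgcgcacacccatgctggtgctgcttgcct
Lamb3: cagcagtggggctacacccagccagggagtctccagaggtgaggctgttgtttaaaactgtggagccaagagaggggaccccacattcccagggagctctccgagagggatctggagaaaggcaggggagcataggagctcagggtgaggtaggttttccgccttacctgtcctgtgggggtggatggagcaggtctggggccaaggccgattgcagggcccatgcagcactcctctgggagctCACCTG

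Over the 300 bases from 250 before to 50 after the start, CAGGTG or CACCTG was found in 16.1% of the 298 distal promoters, in 18.9% of the 190 of the rest of chromosome 1, in 15.9% of the 7714 on other chromosomes and in 20.2% of all 32851 RefSeq promoters. Among the distal promoters, the quartile farthest below its neighbours in change held it in 15 of 74 (20.3%), the 2 middle quartiles in 26 of 150 (17.3%) and the quartile farthest above in 7 of 74 (9.46%). A match is a run of letters and not a binding site. Median GC content was 60.2% in distal promoters, 62.7% in the rest of chromosome 1 and 61.7% on other chromosomes, and CpG dinucleotides stood at 0.78, 0.80 and 0.80 of the number that base composition gives. In base composition and E-boxes the distal promoters thus lay within 3 percentage points of both comparisons. The quartile farthest above its neighbours had the lowest GC content of the 3 sets (56.7%, against 61.7% in the middle quartiles and 60.2% in the quartile farthest below).

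Most promoters of distal chromosome 1 were slightly less open in Snai1, by nearly the same amount from one end of the region to the other. The median change was -0.24, so that the accessibility in Snai1 was 84.7% of that in EV, against a median change of 0.07 (105% of EV) in the rest of chromosome 1. Of the 345 windows, 318 (92.2%) had a value below 0, against 27.9% in the rest of chromosome 1 and 29.1% on other chromosomes. By the authors' deposited FDR values, 210 fell in Snai1 at an FDR under 0.05 (60.9%, where 10.3% of all windows did), 6 rose (1.74%, where 19.6% of all windows did) and 129 did not pass. Nothing is read from these shares, since the region was chosen by this contrast. The 210 that fell had a median change of only -0.30.

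**Figure D1:**
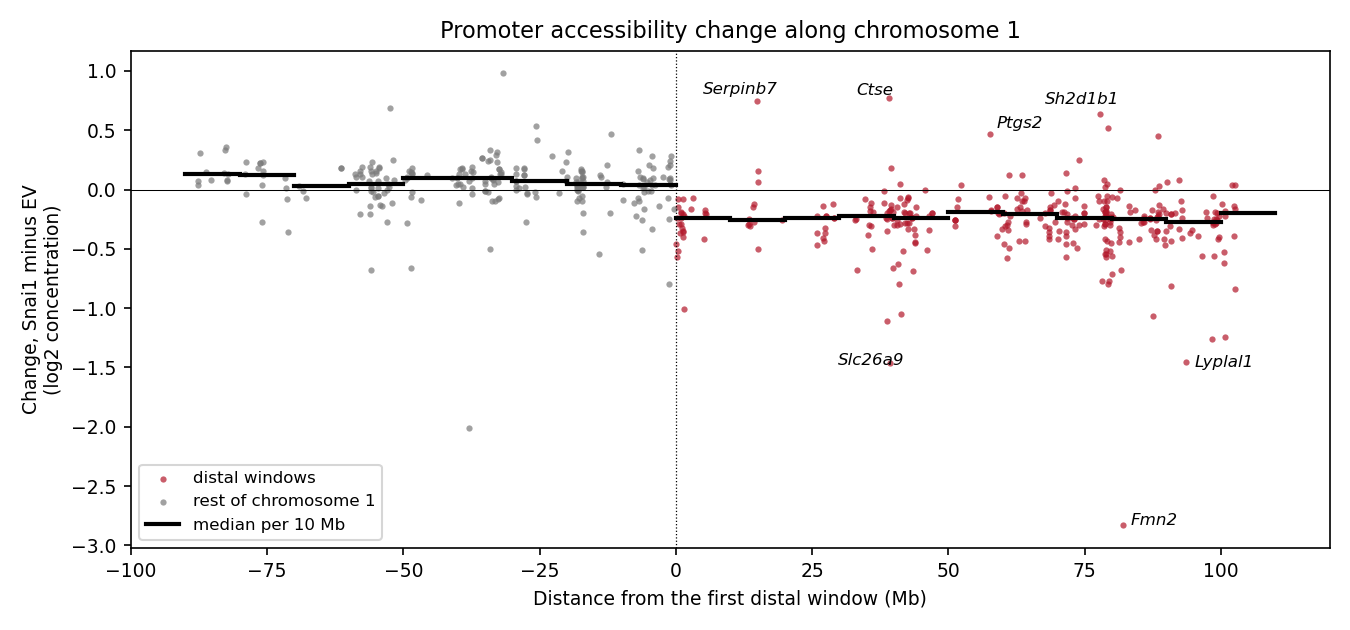
Change in log2 concentration (Snai1 minus EV) of each promoter window of chromosome 1 against its distance in Mb from the first distal window; red points are the 345 distal windows, grey points the 244 others, and black bars the median per 10 Mb. The medians lie between -0.275 and -0.19 at all 11 distances in the distal part and between 0.03 and 0.13 at the 9 before it.

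The level was even along the chromosome. In 11 steps of 10 Mb from the first distal window, each with 12 to 74 windows, the median change lay between -0.275 and -0.19. In the 9 steps before that window it lay between 0.03 and 0.13. The step lay somewhere in the gap between the window of Asb1, 934.1 kb before the boundary, and the first distal window. Traf3ip1, an intraflagellar transport gene 980 kb before the boundary, had log2 concentrations of 10.96 in Snai1 and 10.92 in EV (change 0.04). Asb1 had 12.55 in Snai1 and 12.27 in EV (change 0.28). The window inside Hdac4, a class II histone deacetylase gene, lay 325.4 kb before the boundary and was barely open (5.95 in Snai1, 6.11 in EV; change -0.16, implied SE 0.25), so it places the step on neither side. Just inside, Ndufa10, a subunit gene of respiratory complex I (92473658 to 92474758), had 11.01 in Snai1 and 11.47 in EV (change -0.46), Cops9 10.84 in Snai1 and 11.08 in EV (change -0.24), and Otos 9.88 in Snai1 and 10.45 in EV (change -0.57). Of the next 3 windows none passed the FDR in the authors' deposited table: the glypican gene Gpc1 had a change of -0.52 (implied SE 0.28), Dusp28 of -0.08 and Capn10 of -0.15. At the far end, Cd46 had 9.49 in Snai1 and 10.33 in EV (change -0.84) and Cr1l, the last window, 10.78 in Snai1 and 10.94 in EV (change -0.16). Of the last 5 windows, Cd34 and Cd46 fell, and Gm16897 (-0.14), A330023F24Rik (0.04) and Cr1l did not pass the FDR in the authors' deposited table.

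The windows varied little around that level. The quartiles of the distal windows were -0.35 and -0.16, an interquartile range of 0.19, against 0.17 in the rest of chromosome 1 and 0.21 on other chromosomes. A change from -0.4 to -0.1 was found in 66.1% of distal windows, in 11.5% of the rest of chromosome 1 and in 12.3% on other chromosomes. With the width of the spread alike, the distribution was displaced by -0.31 log2 from that of the rest of chromosome 1, a ratio of 0.81, and by -0.32 from that of all windows.

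**Figure D2:**
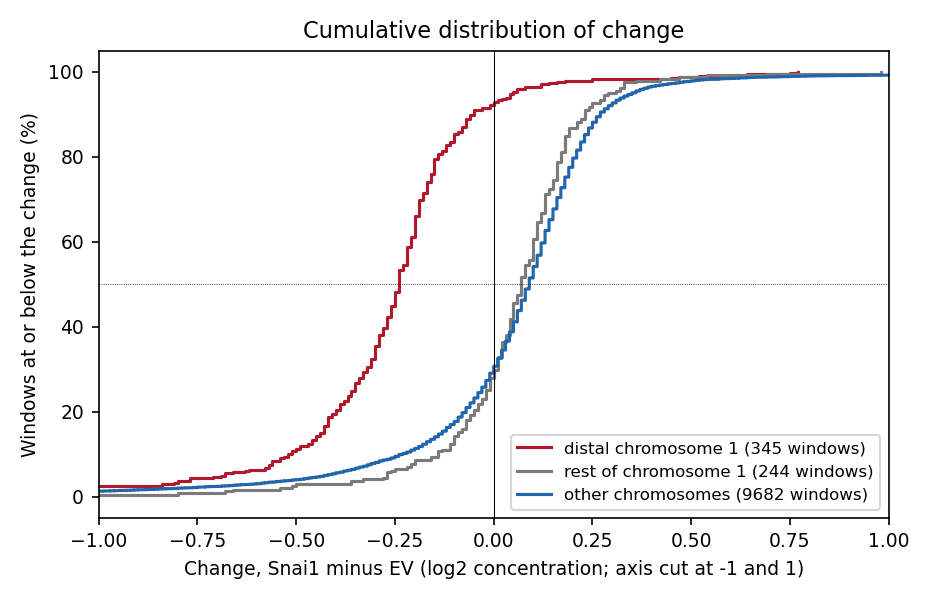
Cumulative percentage of windows at or below each change in log2 concentration (Snai1 minus EV) for distal chromosome 1 (345 windows), the rest of chromosome 1 (244) and the other chromosomes (9682); the horizontal axis is cut at -1 and 1. The distal curve lies left of the other curves, with medians of -0.24, 0.07 and 0.09, and rises about as steeply.

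The shift was of like size in both kinds of window, and lower still at the least open ones. The 167 longer windows, which flank gene starts on the plus strand on both sides, had a median change of -0.24, and the 178 shorter ones, which lie mostly before gene starts on the minus strand, -0.245. Sorted by mean accessibility, the highest quartile had a median of -0.24, the third -0.225, the second -0.24 and the lowest -0.35. Windows outside the region were not sorted in this way here, so whether they vary alike is not known. The scatter did depend on accessibility. The interquartile range of the change ran from -0.2875 to -0.18 in the highest quartile, and from -0.565 to -0.11 in the lowest, where the median implied SE was 0.14 against 0.08 in the highest. Of the 21 windows that lay more than 0.5 log2 from the median of their neighbours, 20 were in the lowest quartile of accessibility and 1 in the second.

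Divergent gene pairs share most of a promoter window and most of its reads. In the 19 pairs with the minus-strand start first and the plus-strand start within 1000 bp after it, both windows were below 0. The members of a pair differed by 0.01 in the median and by at most 0.04. Dtl, a ubiquitin ligase adaptor of DNA replication control, and Ints7, an Integrator subunit gene, had changes of -0.28 and -0.25; Tatdn3 and the kinetochore gene Nsl1 had -0.30 and -0.28. Ptprv and Ptpn7, a phosphatase gene of blood cells, were the pair nearest to 0, at -0.06 and -0.07. Neighbouring windows that overlapped, in such pairs or not, differed by 0.02 in the median and by at most 0.22. That largest difference was between Tor1aip2 (-0.10) and Tor1aip1 (0.12), whose starts lie in the other order. Neighbouring windows that did not overlap differed by 0.17 in the median, and in all 46 of the 345 windows overlapped a neighbour. Of the 7 windows at long non-coding genes, 5 fell, with changes over the 7 from -0.45 to 0.04. One of them was Gas5, a host gene of small nucleolar RNAs, at -0.39.

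Some promoters stood well off their neighbours. A window's offset is its change minus the median change of the 10 nearest windows on each side, which lay between -0.38 and -0.17 over the distal windows. Of the 345, 259 (75.1%) had an offset within 0.2 log2, and 21 (6.09%) one beyond 0.5, against 3.69% in the rest of chromosome 1 and 5.13% on other chromosomes. Set against that local median and divided by the implied SE, 35 distal windows were lower at an FDR of 0.05 (8.36% of all windows were) and 32 were higher (5.45% of all windows were). The changes are those that chose the region, and the local median was taken as known, so these counts describe the windows and test nothing. Windows changed by less than 0.1 had an SE borrowed from windows of like accessibility. Near the boundary, the nearest windows include some outside the region.

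The 6 windows that rose in the authors' deposited table all had positive offsets of 0.67 to 1.00 log2, and all were less open in EV (log2 concentration 7.78 to 10.14) than the median distal window (11.45). Ctse, the gene of the aspartic protease cathepsin E (131637314 to 131639314), had 8.55 in Snai1 and 7.78 in EV in the authors' deposited table (change 0.77, implied SE 0.15, FDR 2.57e-06). Serpinb7, a clade B serpin gene (107421689 to 107423689), had 9.31 in Snai1 and 8.56 in EV; in the authors' deposited table its FDR was 9.80e-10 (change 0.75, implied SE 0.11). Sh2d1b1, which encodes EAT-2, an adaptor of Slam family receptors (170276324 to 170278324), had 10.78 in Snai1 and 10.14 in EV (in the authors' deposited table FDR 1.42e-12; change 0.64, implied SE 0.08). These 3 promoters were 1.71, 1.68 and 1.56 times as open in Snai1 as in EV, while the median change of the 20 windows nearest to each was below 0. Cd84, a Slam family receptor, had 8.83 in Snai1 and 8.31 in EV (change 0.52). Ptgs2, the inducible cyclooxygenase, had 10.24 in Snai1 and 9.77 in EV (change 0.47). Ephx1, the microsomal epoxide hydrolase, had 9.44 in Snai1 and 8.99 in EV (change 0.45).

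Another 6 windows completed the 12 with the highest offsets. None passed the FDR in the authors' deposited table, and their changes were between 0.08 and 0.25. They belonged to Pogk (0.25), Slc45a3 (0.18), Serpinb8 (0.16), the coagulation factor V gene F5 (0.14), the sialic acid lyase gene Npl (0.12) and the homeobox gene Hlx (0.08). Hlx, a regulator of blood and liver development in the mouse, lay at 11.41 in Snai1 and 11.33 in EV, the most open of the 12, and its offset of 0.42, from neighbours with a median of -0.34, was 0.305 with 5 neighbours on each side.

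**Figure D3:**
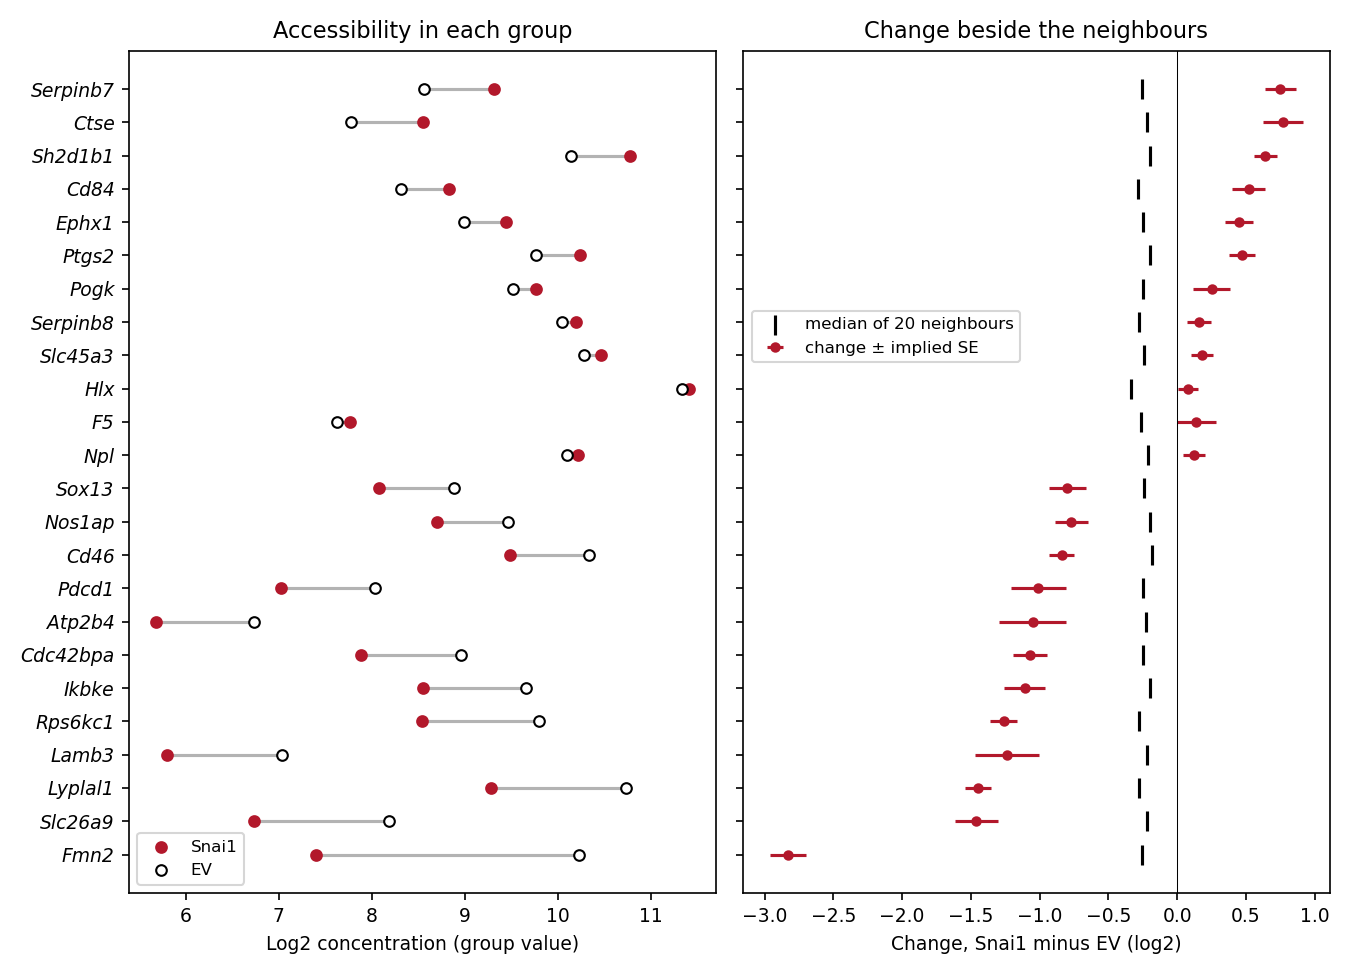
The 12 windows with the highest and the 12 with the lowest offset from their neighbours on distal chromosome 1. Left, log2 concentration in Snai1 (filled) and in EV (open); right, the change with the implied SE as the bar and the median change of the 20 nearest windows as a tick, which stays between -0.34 and -0.18 for all 24.

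The largest decreases at single promoters exceeded the largest increases, but every change includes the level shared by the region. As an offset, Fmn2 stood alone at -2.58. The next lowest offsets were -1.24 (Slc26a9) and -1.18 (Lyplal1), and the highest were 1.00 (Serpinb7) and 0.99 (Ctse). Fmn2, which encodes a formin that nucleates actin filaments (174500825 to 174502825), had 7.40 in Snai1 and 10.23 in EV in the authors' deposited table (change -2.83, implied SE 0.13, FDR 3.80e-98). Its accessibility in Snai1 was 14.1% of that in EV, the lowest of the 345. Lyplal1, a lysophospholipase-like gene (186117210 to 186118310), had 9.28 in Snai1 and 10.73 in EV (in the authors' deposited table FDR 5.14e-51; change -1.45, implied SE 0.09). Slc26a9, an epithelial chloride channel gene (131743022 to 131745022), had 6.73 in Snai1 and 8.19 in EV (in the authors' deposited table FDR 9.84e-19; change -1.46, implied SE 0.16). Accessibility in Snai1 was 36.6% of EV at Lyplal1 and 36.3% at Slc26a9.

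In all, 9 distal windows changed by -1 log2 or less, and 7 of them had a log2 concentration under 10 in EV, the exceptions being Fmn2 and Lyplal1. Rps6kc1, a gene related to the ribosomal S6 kinases, had 8.54 in Snai1 and 9.80 in EV (change -1.26, implied SE 0.10). Lamb3, the laminin beta-3 chain of epithelial basement membranes, was barely open, with 5.80 in Snai1 and 7.04 in EV (change -1.24, implied SE 0.23). Ikbke, the kinase IKK-epsilon of antiviral signalling, had 8.55 in Snai1 and 9.66 in EV (change -1.11, implied SE 0.15). All 3 passed the FDR in the authors' deposited table (6.15e-36, 1.64e-06 and 5.79e-12). Cdc42bpa, a kinase that acts downstream of Cdc42 on actomyosin, had a change of -1.07. Atp2b4, a calcium pump of the plasma membrane, was barely open, with 5.68 in Snai1 and 6.73 in EV (change -1.05, implied SE 0.24). Pdcd1, the inhibitory receptor PD-1 of lymphocytes, had 7.03 in Snai1 and 8.04 in EV (change -1.01, implied SE 0.20). Cd46 (-0.84), the transcription factor gene Sox13 (-0.80) and the nitric oxide synthase adaptor gene Nos1ap (-0.77) closed the 12 lowest offsets.

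Promoters with opposite changes were found side by side. Between Ikbke and Tmcc2, over about 1.1 Mb, the order of the changes was Ikbke -1.11, Fam72a -0.18, Ctse 0.77, Rab7b -0.17, Slc26a9 -1.46, Rab29 -0.16, Slc45a3 0.18, Elk4 -0.13, Mfsd4a -0.24, Cdk18 -0.24 and Tmcc2 -0.66. The windows of Fam72a, Rab29, Elk4 and Cdk18, which were far more open (11.37 to 13.17 in Snai1, 11.61 to 13.35 in EV), stayed between -0.24 and -0.13. The changes beyond 0.5 log2 in this stretch were at weakly open windows (Ikbke, Ctse, Slc26a9 and Tmcc2), with concentrations under 10 in both groups. Not all weakly open windows moved that far. Rab7b (6.14 in Snai1, 6.31 in EV) and Mfsd4a (8.81 in Snai1, 9.05 in EV) lay between -0.24 and -0.13 as well.

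Among 16 Slam family and Fc receptor genes of the region, 10 had a window: 3 fell, Cd84 rose and 6 did not pass, by the authors' deposited table, where 60.9% of all distal windows fell and 1.74% rose. Their median change was -0.075, against -0.24 for all distal windows. The activating Fc receptor gene Fcgr3 had 11.50 in Snai1 and 11.42 in EV (change 0.08), and Fcer1g, the signalling chain shared by Fc receptors, 11.20 in Snai1 and 11.18 in EV (change 0.02). The natural killer receptor gene Cd244a had 12.19 in Snai1 and 12.14 in EV (change 0.05), and its ligand gene Cd48 11.04 in Snai1 and 11.09 in EV (change -0.05). These 4 open promoters therefore lay 0.21 to 0.32 above the median of their neighbours. Slamf1 (CD150), used as a marker of blood stem cells in the mouse, had 7.35 in Snai1 and 8.15 in EV (in the authors' deposited table FDR 9.43e-06; change -0.80, implied SE 0.16), and it lies next to Cd84 in the table. Ly9 (-0.43) and Fcgr4 (-0.31) also fell, while the inhibitory receptor gene Fcgr2b had a value of -0.10 and Slamf9 one of -0.56. The Fc receptor genes resemble each other in sequence, so reads in them may be shared.

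**Figure D4:**
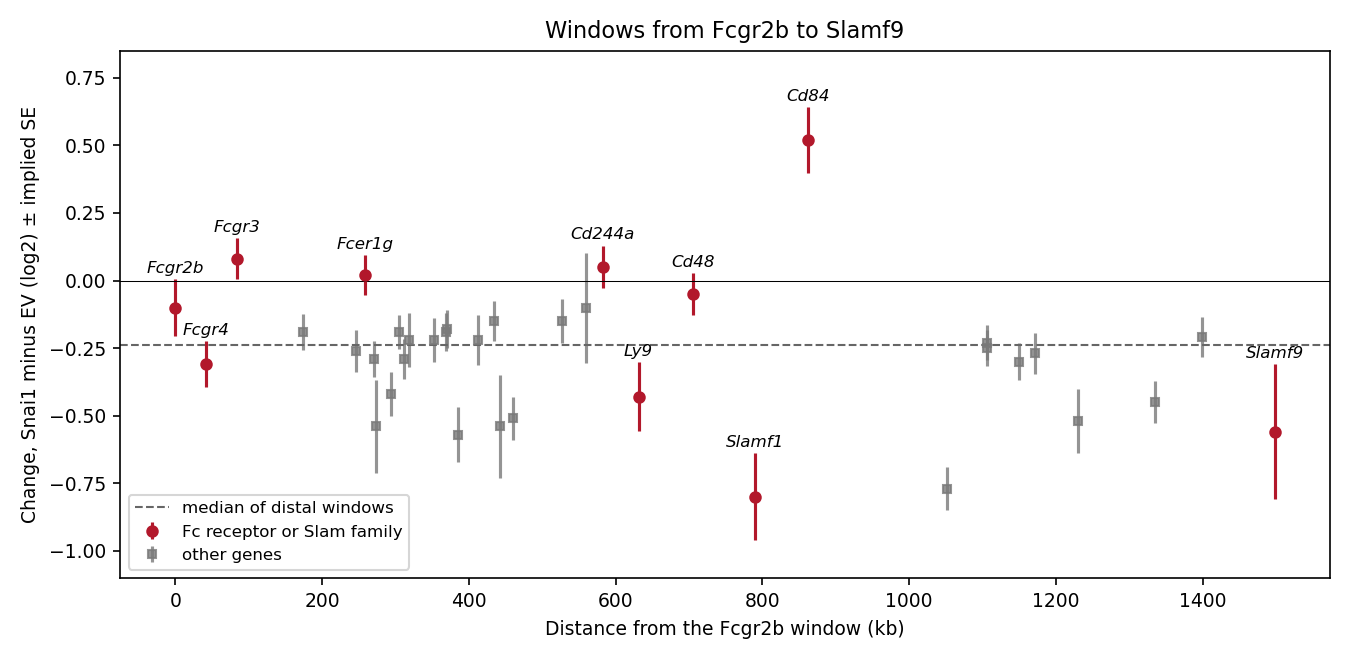
Change in log2 concentration (Snai1 minus EV) with the implied SE as the bar for the 36 windows from Fcgr2b to Slamf9, against the distance in kb from the Fcgr2b window; red circles are Fc receptor and Slam family genes, grey squares other genes. The other genes scatter around the dashed distal median of -0.24, whereas Fcgr3, Fcer1g, Cd244a and Cd48 lie between -0.05 and 0.08, Cd84 at 0.52 and Slamf1 at -0.80.

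In that stretch of 1.5 Mb, 24 of 36 windows fell and 1 rose in the authors' deposited table, near the distal shares of 60.9% and 1.74%. F11r, the junctional adhesion molecule JAM-A, had 11.27 in Snai1 and 11.78 in EV (change -0.51, implied SE 0.08). Vangl2, a planar polarity gene, had 9.84 in Snai1 and 10.61 in EV (change -0.77). The housekeeping genes in between, such as the nuclear-encoded succinate dehydrogenase gene Sdhc (-0.19), Copa of the COPI coat (-0.23) and the gamma-secretase gene Ncstn (-0.25), lay at the level of the region.

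Other surface and signalling genes of blood cells had values from -1.01 (Pdcd1) to 0.47 (Ptgs2). Of 30 in the region, 14 had a window; 5 fell, 1 rose and 8 did not pass, by the authors' deposited table (60.9% of distal windows fell), with a median change of -0.13. Ptprc had 10.16 in both groups (change 0.00). The chemokine receptor gene Cxcr4 had 11.42 in Snai1 and 11.61 in EV (change -0.19, FDR 0.0725 in the authors' deposited table). Cd34, a surface marker of progenitors, fell, with 11.06 in Snai1 and 11.45 in EV (change -0.39, FDR 3.39e-06 in the authors' deposited table). The antigen-presenting gene Mr1 had a value of -0.07. Regulators of G protein signalling were few: 4 of 11 had a window and none passed, with Rgs18, expressed in platelets, at 0.04, Rgs1 at -0.08, Rgs2 at -0.15 and Rgs8 at -0.49.

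Of 9 clade B serpin genes, 4 had a window, all within 0.2 Mb. Serpinb7 rose, as given above, and none of the other windows passed: Serpinb8 had a value of 0.16, Serpinb2 of 0.06 and Serpinb10 of -0.50. Of 13 Ifi200 genes 6 had a window, 5 of them weakly open. Ifi211 fell (-0.36), while Ifi203 (-0.40), Ifi204 (-0.32), Ifi207 (-0.44) and Ifi202b (0.00) did not pass, by the authors' deposited table. Genes of this family are closely alike and may share reads, so their values are uncertain. The DNA sensor gene Aim2, the open member, had 10.98 in Snai1 and 11.05 in EV (change -0.07). Of 9 complement regulators, Cd46 fell and Cr1l did not pass, and the others had no window.

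**Figure D5:**
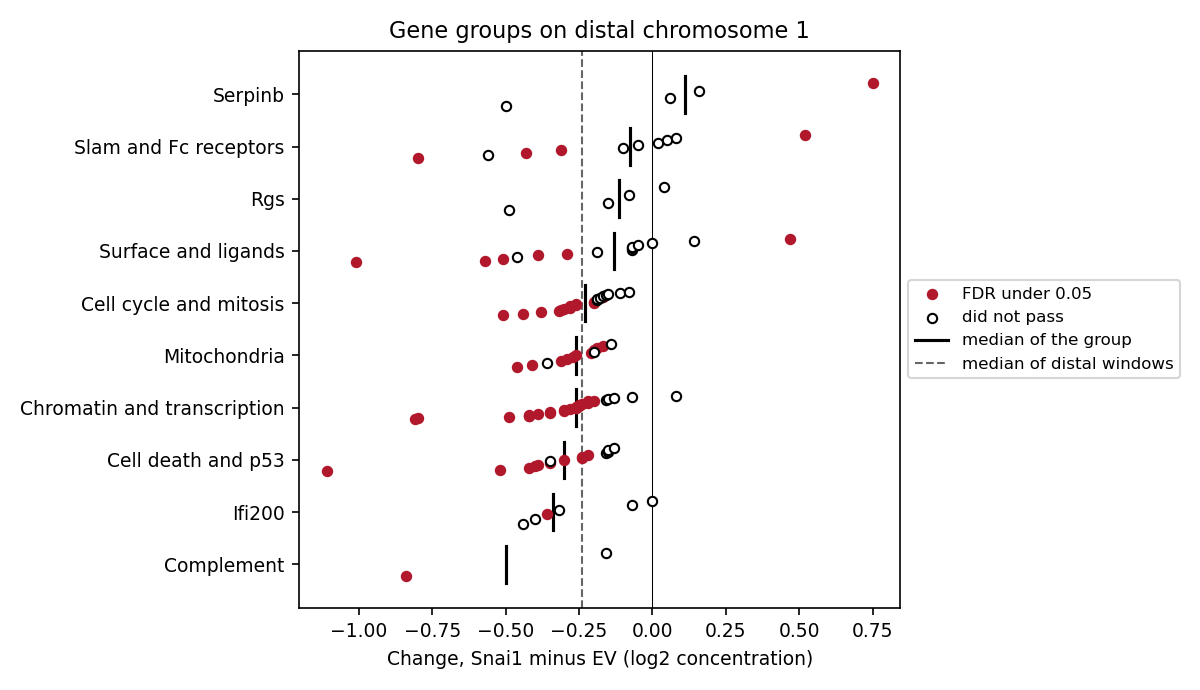
Change in log2 concentration (Snai1 minus EV) of every window of the 10 gene groups on distal chromosome 1; filled points passed the authors' FDR of 0.05, open points did not, black bars are group medians and the dashed line is the distal median of -0.24. The medians of mitochondrial, cell cycle and chromatin genes lie within 0.02 of the dashed line, with single chromatin genes as far off as -0.81 and 0.08. The medians of the Slam and Fc receptor, Rgs, surface gene and serpin groups lie above it. The Rgs and serpin groups have 4 windows each. The medians of the cell death and p53 (-0.30), Ifi200 (-0.34) and complement genes (-0.50, 2 windows) lie below it.

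The medians of the housekeeping groups lay near that of the region. Of all distal windows 60.9% fell in the authors' deposited table (10.3% of all windows did), 1.74% rose and 92.2% were below 0, and the counts of these groups stand beside those shares. Of 23 cell cycle and mitosis genes, 22 had a window, and all 22 were below 0; 14 fell and none rose in the authors' deposited table (median -0.23, range -0.51 to -0.08). The mitotic kinase gene Nek7 had the lowest value (10.67 in Snai1, 11.18 in EV; change -0.51), and the thymidylate kinase gene Dtymk the highest (11.59 in Snai1, 11.67 in EV; change -0.08). The spindle gene Aspm (-0.20), the replication helicase gene Mcm6 (-0.11) and Cenpf (-0.19) lay between. Of 16 genes of the mitochondrial list, 12 had a window, 1 of them 2 windows, and of these 13 windows 10 fell (median -0.26, range -0.46 to -0.14), among them Ndufa10 (-0.46), Iars2 (-0.41) and the mitochondrial ribosomal protein gene Mrps14 (-0.31).

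Of 36 chromatin and transcription genes in the region, 27 had a window; 22 fell, 5 did not pass and none rose in the authors' deposited table (median -0.26), where 60.9% of all distal windows fell. The CoREST family gene Rcor3 had 10.91 in Snai1 and 11.13 in EV (change -0.22, FDR 0.0392 in the authors' deposited table), which was 0.04 above its neighbours. The histone H3.3 gene H3f3a (-0.35), the H3K4 demethylase gene Kdm5b (-0.28), the Polycomb ubiquitin ligase gene Rnf2 (-0.39) and the octamer factor gene Pou2f1 (-0.49) fell. Taf1a, of the RNA polymerase I initiation factor SL1, went lower (9.37 in Snai1, 10.18 in EV; change -0.81, implied SE 0.09). Hlx, described above, was the single member above 0.

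Of 17 cell death and p53 genes, 15 had a window, and all 15 were below 0; 10 fell and none rose in the authors' deposited table (median -0.30), near the distal shares of 60.9% lower and 92.2% below 0. Apart from Ikbke, the antiproliferative gene Btg2 was lowest, with 10.82 in Snai1 and 11.34 in EV (change -0.52, implied SE 0.09). The poly(ADP-ribose) polymerase gene Parp1 (-0.42), Traf5 (-0.40) and the p53 inhibitor gene Mdm4 (-0.30) fell as well. Bcl2, the survival gene, had 11.38 in Snai1 and 11.53 in EV (change -0.15, FDR 0.194 in the authors' deposited table). In these groups the offsets of Mdm4 (-0.06), Bcl2 (0.08) and Cxcr4 (0.03) were smaller than their implied SEs, so those windows could not be told from their neighbours, whether or not they passed the FDR.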

How the data were processed

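The log2 concentrations, log2 fold, p-value and FDR were computed by the authors. The tools named in the submitters' processing notes are fastp, Bowtie2, Picard and DiffBind, and the build is mm10. Not given in the sources used here are versions, how reads were counted and scaled, any Tn5 shift, and depth. The deposited table had 10274 rows, of which 3 were repeats. The deposited log2 fold is EV over Snai1 and was turned round; it differed from the group values by at most 0.01. With 0 columns per library, no test across libraries was run, and the deposited p-value and FDR stand as the authors gave them.

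Gene starts were taken at 1000 bp into the longer of the 2 window lengths (plus strand) and at 100 bp into the shorter (minus strand). A window was given the RefSeq gene (GRCm38.p6) with a start on that strand within 1000 bp, otherwise the gene that spans it. Of the distal windows 342 were given a gene by its start and 3 by span.

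The implied SE was had by dividing the change by the normal deviate of its deposited p-value; windows changed by less than 0.1 were given the median of 1 of 20 bins of accessibility. The calculation was run on simulated data with normal noise and p-values made by the same formula. That checks the arithmetic alone, and not its fit to the deposited p-values. The members, the lists of genes and the rules were chosen with earlier results of these data known. Named genes were the 12 highest and 12 lowest offsets without predicted genes, up to 3 per list with the largest offset, 7 fixed genes and the windows at the boundary; other genes were chosen after their values were seen. Some genes are not reported here. Scripts ran in python 3.11.15 with pandas 2.3.3 and scipy 1.17.1.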

Additional observations from a re-analysis of the deposited data

How the results depend on the processing

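The distal median of -0.24 and its difference from the rest of chromosome 1 of -0.31 moved by less than the median implied SE of 0.08 under every alternative run for them: a minimum log2 concentration of 9, either window width alone, 1 window per gene, the deposited fold, and the boundary moved by 5 Mb either way; with the median of all windows (0.08) subtracted, the distal median was -0.32. The 210 windows that fell were 140 at an FDR of 0.01, 252 at an unadjusted p of 0.05, 193 with the minimum concentration and 264 with the median of all windows subtracted and the changes tested again. With the median of the 10 nearest windows on each side subtracted instead, 35 were lower (8.36% of all windows were) and 32 higher (5.45% of all were), in place of 210 and 6; this setting removes the shared level by construction. The 6 windows that rose were 3 with the minimum concentration of 9, which leaves out the others by construction. Of 50 named windows, 48 kept the sign of their offset with 5 or 20 neighbours or the distal median in place of 10 neighbours; with 5 neighbours, the offset of Cr1l was -0.02 in place of 0.14 and that of Cxcr4 0.00 in place of 0.03. Under these settings 5 named offsets moved by more than their implied SE: that of Cr1l, that of Hlx (0.305 to 0.34, in place of 0.415), that of Npl (0.32 to 0.425, in place of 0.33), that of Aim2 (0.17 to 0.27, in place of 0.27) and that of Mrps14 (-0.115 to -0.005, in place of -0.135). No paired analysis was possible because only group values were deposited, and for the same reason no replicate could be left out in turn. Precision was lowest at weakly open windows.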
